A study of Mus musculus with 10 samples.

Results

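Fgf4, Utf1, Fbxo15 and Zscan10 were taken by their symbols, as genes long described as carrying a composite SOX2-OCT4 element. Each was found as 1 transcribed unit (TU), a stretch of a strand over which nascent RNA was detected. Of the 40779 TUs in all, 16137 had a gene symbol, these 4 included. Each of the 4 passed the filter on low counts (more than 10 fragments in at least 2 libraries), as did 28459 TUs in all.

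The study followed transcription after acute loss of SOX2 in E14 mouse embryonic stem cells of the genotype SOX2-FKBP, in which SOX2 carries an FKBP tag and is degraded when the small molecule dTAG-13 is added. Nascent RNA was labelled with 2 mM 4SU for 10 min and sequenced by TT_chem_seq, in 5 groups of 2 libraries each: untreated cells that received DMSO (NT) and cells given 500 nM dTAG-13 for 0.5, 1, 2 or 6 h (0.5, 1, 2 and 6 hpd, hours post depletion). Cells of every group, NT included, carried the tag, came from homozygous clones according to the methods, and grew without serum in LIF, the MEK inhibitor PD0325901 and the GSK3 inhibitor CHIR99021. Untagged cells given dTAG-13 were not analysed here, so SOX2 loss and any other action of the compound cannot be told apart.

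SOX2 and OCT4 bind DNA side by side on composite elements, in which the letters read by the SOX domain are followed by those read by the POU domain. Such elements have been described at genes that are active in pluripotent cells and fall silent on differentiation, the 4 genes here among them. Fgf4 encodes a secreted growth factor that acts through FGF receptors and the ERK kinases and moves stem cells towards lineage commitment. Utf1 encodes a chromatin-bound protein of pluripotent cells. Fbxo15 encodes an F-box protein, the substrate-binding kind of subunit of SCF ubiquitin ligases, and has served as a reporter of pluripotency. Zscan10 encodes a zinc finger transcription factor with a SCAN domain.

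The sequences below show the composite letters at Fgf4 and Utf1, because a reader following SOX2 loss would look there first. The letters searched were TTGTNATGC, with the SOX and POU parts 1 base apart, and TTGTNNNNATGC, with the parts 3 bases further apart, on both strands of each TU and 5 kb to either side. Capitals mark the match, and the coordinates are those of the match on GRCm38.p6 (mm10), from the RefSeq genome.
Fgf4, TTGTNNNNATGC, chr7:144864396-144864407, + strand: aaactctTTGTTTGGATGCtaatggg
Utf1, TTGTNATGC, chr7:139945685-139945693, - strand: gccgtcaTTGTTATGCtagtgaa
The Fgf4 match lay in the last exon, outside the coding part, 3.01 kb after the RefSeq start. The Utf1 match lay 573 bases past the RefSeq end of the gene and inside its TU. Each was the only match to its own pattern in the window, and neither window held the other pattern. The Fbxo15 window held 4 matches to TTGTNATGC and 1 to TTGTNNNNATGC, all inside the TU, of which 1 was in a coding exon, 3 in introns and 1 past the gene. The Zscan10 window held neither pattern. With the last base left free (TTGTNATG, which also counts the TTGTNATGC matches), 4 matches were found around Zscan10, all 0.80 to 2.44 kb past the end of its TU, 4 around Fgf4, 4 around Utf1 and 15 around Fbxo15. A match of this kind at Fbxo15 lay 64 bases before the RefSeq start of the gene, on the - strand. These letters are common: both strands of chromosome 7 held 0.268 matches to TTGTNATGC and 0.353 to TTGTNNNNATGC per 10 kb, against 0.620 and 0.228 per 10 kb where they were found at Utf1 and Fgf4. A match is a description of the letters and no evidence of binding.

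The 250 bases before the RefSeq start are shown next for Fgf4, Utf1 and Zscan10, as the annotated promoters of these genes. The measured TUs of Fgf4 and Zscan10 begin further upstream, 9.85 and 1.53 kb before the RefSeq start, and that of Utf1 begins at it. Capitals mark GC boxes (GGGCGG read on the printed strand or CCGCCC for the other strand), and all are from the + strand of GRCm38.p6.
Fgf4, chr7:144861136-144861385: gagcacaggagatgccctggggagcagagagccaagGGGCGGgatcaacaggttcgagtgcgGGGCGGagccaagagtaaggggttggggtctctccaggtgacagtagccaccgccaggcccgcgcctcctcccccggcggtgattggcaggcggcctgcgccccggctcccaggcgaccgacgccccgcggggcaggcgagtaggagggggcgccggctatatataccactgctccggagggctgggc
Utf1, chr7:139943606-139943855: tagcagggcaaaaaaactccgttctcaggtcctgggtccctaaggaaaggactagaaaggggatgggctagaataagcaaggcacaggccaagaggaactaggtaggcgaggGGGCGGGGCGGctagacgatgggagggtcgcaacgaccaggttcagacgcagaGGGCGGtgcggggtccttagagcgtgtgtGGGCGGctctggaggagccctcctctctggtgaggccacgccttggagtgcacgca
Zscan10, chr17:23600576-23600825: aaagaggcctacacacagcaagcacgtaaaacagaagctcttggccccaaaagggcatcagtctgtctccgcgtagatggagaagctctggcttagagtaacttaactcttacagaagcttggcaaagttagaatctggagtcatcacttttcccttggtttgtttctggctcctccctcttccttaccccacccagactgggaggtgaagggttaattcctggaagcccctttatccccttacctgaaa
The Fgf4 window held 2 GC boxes, the Utf1 window 4, of which a pair shares 1 base, and the Zscan10 window 0. Of the 32851 promoter windows of this length, 32.7% held at least 1. The G and C content was 71.2% at Fgf4, 61.6% at Utf1 and 48.8% at Zscan10, beside a median of 52.4% over all windows. TATAAA, which 12.4% of windows held, and TTGTNATG, which 2.99% held, were in none of these 3 windows on either strand.

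Libraries held between 11131490 and 25854106 fragments in TUs. The counts behind each value ran from 6555 to 17473 fragments for Fbxo15, 677 to 2295 for Fgf4, 635 to 1958 for Zscan10 and only 64 to 265 for Utf1, the least precise of the 4. Sox2 itself, the gene of the depleted protein, differed from NT by a log2 fold change of 0.06 (SE 0.11) at 6 hpd (adjusted p = 0.736). Degradation acts on the protein, so the nascent RNA of Sox2 checks no label. The 9 stem cell markers summed to 4200 to 4620 CPM (fragment counts scaled to a common library size, by TMM) in NT and to 3600 to 3877 CPM at 6 hpd. Most of the sum came from Esrrb, Zfp42 and Tfcp2l1, and single markers moved unequally. From NT to 6 hpd mean Klf4 went from 111 to 53.8 CPM and Pou5f1 from 159 to 103 CPM. Tfcp2l1 (974 and 983 CPM) and Sox2 (263 and 275 CPM) were not lower. Markers of other cell types were low but did not stay level. Trophoblast markers, of which Elf5 and Hand1 had no TU, summed to 3.84 to 5.52 CPM in NT and 8.47 to 11.05 CPM over 0.5 to 2 hpd. At 6 hpd the sum was 4.64 to 4.89 CPM. The rise came mostly from Eomes, with a mean of 8.40 CPM at 2 hpd against 2.42 CPM in NT. Mean Gata3 went from 2.22 CPM in NT to 1.37 CPM at 2 hpd. Primed cell markers summed to 8.68 to 9.59 CPM in NT, 4.202 to 5.56 CPM over 0.5 to 2 hpd and 6.81 to 7.22 CPM at 6 hpd. These markers moved in opposite directions. From NT to 6 hpd mean Otx2 went from 8.85 to 4.37 CPM and mean Pou3f1 from 0.283 to 2.65 CPM. Fgf5 and Dnmt3b had no TU. Neural markers summed to 24.0 to 29.8 CPM in NT, 33.1 to 33.3 CPM at 0.5 hpd and 16.4 to 20.2 CPM at 6 hpd. Mean Tubb3 went from 15.1 CPM in NT to 5.37 CPM at 6 hpd, and mean Pax6 from 11.8 to 12.9 CPM. Sox1, Neurod1 and Neurog2 had no TU. In NT and at 6 hpd, mesoderm markers summed to 9.69 to 12.2 and 6.81 to 8.21 CPM, mostly from Kdr. T and Mesp1 had no TU. Extraembryonic endoderm markers, of which Foxa2 had no TU, summed to 2.40 to 2.96 and 3.49 to 4.14 CPM at these times. Mean Gata6 was at 1.15 and 2.09 CPM, and mean Gata4 at 1.04 and 0.858 CPM. Fibroblast markers summed to 9.74 to 12.5 CPM in NT and to 27.3 to 42.6 CPM at 6 hpd, mostly from Pdgfrb, while Col1a2 and Col3a1 had no TU. The part of these markers in the results below was not tested. With bulk libraries, fewer cells transcribing a gene and less RNA per cell cannot be told apart.

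All 4 genes had fallen by 6 hpd. Fgf4 and Utf1 had already fallen at 1 hpd, to 51.2% ± 2.84 and 45.4% ± 2.11 of their NT means (SD, n = 2). Fbxo15 and Zscan10 stood at 83.4% ± 2.41 and 88.3% ± 2.70 at that time, and passed the test from 2 hpd, though Fbxo15 passed at 1 hpd with total counts as the only scaling (-0.35, adjusted p = 0.0105) and when only NT and 1 hpd libraries were fitted (-0.24, adjusted p = 0.0266). At 6 hpd Utf1 was at 29.2% ± 5.09, Fgf4 at 37.4% ± 1.95, Zscan10 at 53.1% ± 3.43 and Fbxo15 at 69.2% ± 3.79 of NT. The test was the quasi-likelihood F-test of edgeR, with p-values adjusted by Benjamini-Hochberg over the 28459 TUs and a threshold of 0.05. It called 0 of the 4 at 0.5 hpd, 2 at 1 hpd and all 4 at both later times, in each case as lower. Leaving out 1 library at a time gave 1 to 2 calls at 1 hpd (1 when NT replicate 2 or the first 1 hpd replicate was left out), 1 to 4 at 2 hpd (1 without NT replicate 2) and 4 at 6 hpd. Over all TUs tested the shares called at the 4 times in turn were 1.31%, 5.75%, 9.83% and 15.8%, made up of 0.787%, 3.61%, 5.57% and 9.2% called as lower and 0.527%, 2.15%, 4.26% and 6.61% called as higher. At 0.5 hpd 1 of the 4, Fgf4, had an unadjusted p under 0.05, and DESeq2 called 0, 2, 3 and 4 over the 4 times in turn. Fgf4 was also called at 0.5 hpd when replicate number was added to the edgeR fit as a block. All 4 passed a joint test of the 4 time points against NT, as did 12.3% of TUs.

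**Figure D1:**
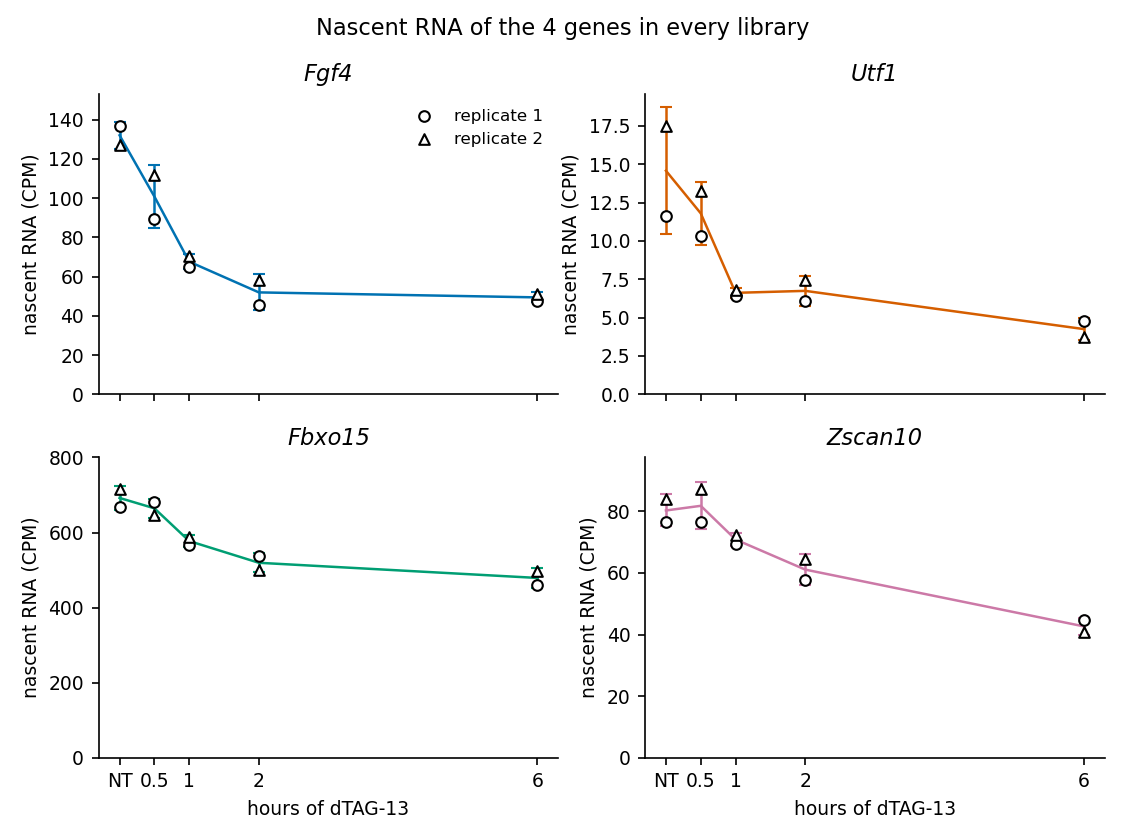
Nascent RNA (CPM, axis from 0) of Fgf4, Utf1, Fbxo15 and Zscan10 against hours of dTAG-13, with NT at the left. Circles and triangles are the 2 libraries of a group, lines join group means and bars are SDs: Fgf4 was at 64.9 and 70.2 CPM at 1 hpd, below both NT libraries, while the 0.5 hpd libraries of Zscan10 lay at 76.4 and 87.1 CPM, across its NT values.

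Fgf4 lay on chromosome 7 from 144861386 to 144865245 on the + strand (GRCm38.p6), and its TU ran from 144851534 to 144885336, that is, 9.85 kb before and 20.1 kb past the RefSeq transcript, which covers 11.4% of the TU. The NT libraries gave 136.8 and 127.1 CPM. At 0.5 hpd the libraries gave 89.6 and 112 CPM, both below NT, though the fold change (log2 -0.39, SE 0.13) did not pass the test (adjusted p = 0.214). Without 0.5 hpd replicate 1, the lower library, it was -0.23. With replicate number added to the fit as a block, Fgf4 did pass at 0.5 hpd, as given at the end. The labels do not say what the replicate numbers pair. At 1 hpd the libraries gave 64.9 and 70.2 CPM, a log2 fold change of -0.97 (SE 0.13, 95% confidence interval -1.25 to -0.68, adjusted p = 0.000348). The decline was thus in place within the first hour of treatment. At 2 hpd the values were 45.5 and 58.4 CPM (log2 -1.35, SE 0.13, adjusted p = 1.23e-05) and at 6 hpd 47.6 and 51.2 CPM (log2 -1.42, SE 0.13, adjusted p = 4.76e-06). The 2 and 6 hpd libraries overlapped, and their difference was -0.07 on the log2 scale (95% interval -0.36 to 0.22, adjusted p = 0.904). Ranked by p among all falls in transcription, Fgf4 was 97th at 2 hpd and 130th at 6 hpd.

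Utf1 lay on chromosome 7 from 139943856 to 139945112 on the + strand, and its TU began at the same base and ran on to 139949987, 4.88 kb past the gene. The NT libraries gave 11.6 and 17.5 CPM, a wider spread than for the other 3 genes. The 0.5 hpd libraries gave 10.3 and 13.3 CPM and overlapped NT (log2 -0.32, SE 0.20, adjusted p = 0.712). Leaving out 1 library at a time gave -0.59 to 0.0042, with the sign turned without NT replicate 2. From 1 hpd on, every library lay below both NT libraries. The values were 6.40 and 6.83 CPM at 1 hpd (log2 -1.14, SE 0.21, adjusted p = 0.00409) and 6.07 and 7.42 CPM at 2 hpd (log2 -1.11, SE 0.21, adjusted p = 0.0029). At 6 hpd they were 4.78 and 3.73 CPM (log2 -1.78, SE 0.22, adjusted p = 6.95e-05), a 3.44-fold lower level than in NT. The further change from 2 to 6 hpd, -0.67 (SE 0.23), did not pass the test (adjusted p = 0.26). The 1 and 2 hpd calls of Utf1 rested on NT replicate 2, the higher of the NT libraries: without it the log2 fold changes were -0.79 at both times (adjusted p = 0.0992 and 0.0707). The 1 hpd call was also lost without 1 hpd replicate 1 (-1.09, adjusted p = 0.0562), and the 6 hpd call held whichever library was left out.

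Fbxo15 lay on chromosome 18 from 84934552 to 84981476 on the + strand, in a TU from 84932661 to 84995195. It was the most transcribed of the 4, at 668.9 and 715.1 CPM in NT. The 0.5 hpd libraries, at 681.9 and 647.0 CPM, overlapped NT (log2 -0.06, SE 0.10, adjusted p = 0.94). At 1 hpd both libraries, 565.4 and 589.0 CPM, lay below NT, but the fold change of -0.26 (SE 0.10) did not pass the test (adjusted p = 0.187). At 2 hpd the values were 537.3 and 501.4 CPM (log2 -0.41, SE 0.10, adjusted p = 0.0189) and at 6 hpd 460.4 and 497.6 CPM (log2 -0.53, SE 0.10, adjusted p = 0.00269). The fall was the smallest of the 4 at 6 hpd, yet every library from 1 hpd on lay below the lower NT library. The 2 hpd call was lost without NT replicate 2 (-0.37, adjusted p = 0.153) and when only NT and 2 hpd libraries were fitted (-0.40, adjusted p = 0.177).

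Zscan10 lay on chromosome 17 from 23600826 to 23611019 on the + strand, in a TU from 23599299 to 23616104. In NT it was at 76.6 and 83.9 CPM, and at 0.5 hpd at 76.4 and 87.1 CPM, a range that contained the NT range (log2 0.02, SE 0.11, adjusted p = 0.979). At 1 hpd the libraries gave 69.3 and 72.4 CPM, below NT but not past the test (log2 -0.18, SE 0.11, adjusted p = 0.416; -0.09 without NT replicate 2). At 2 hpd they gave 57.6 and 64.6 CPM (log2 -0.39, SE 0.11, adjusted p = 0.0326). By 6 hpd the level had reached 44.6 and 40.7 CPM (log2 -0.91, SE 0.11, adjusted p = 5.17e-05). The 2 hpd call was close to the threshold: DESeq2 gave -0.36 (adjusted p = 0.0531), RLE size factors -0.36 (adjusted p = 0.0502), and leaving out either NT library, either 1 hpd library or 2 hpd replicate 1 gave adjusted p-values from 0.0523 to 0.228. The 2 hpd call of Zscan10 was also lost when only NT and 2 hpd libraries were fitted. The 6 hpd call held whichever library was left out.

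**Figure D2:**
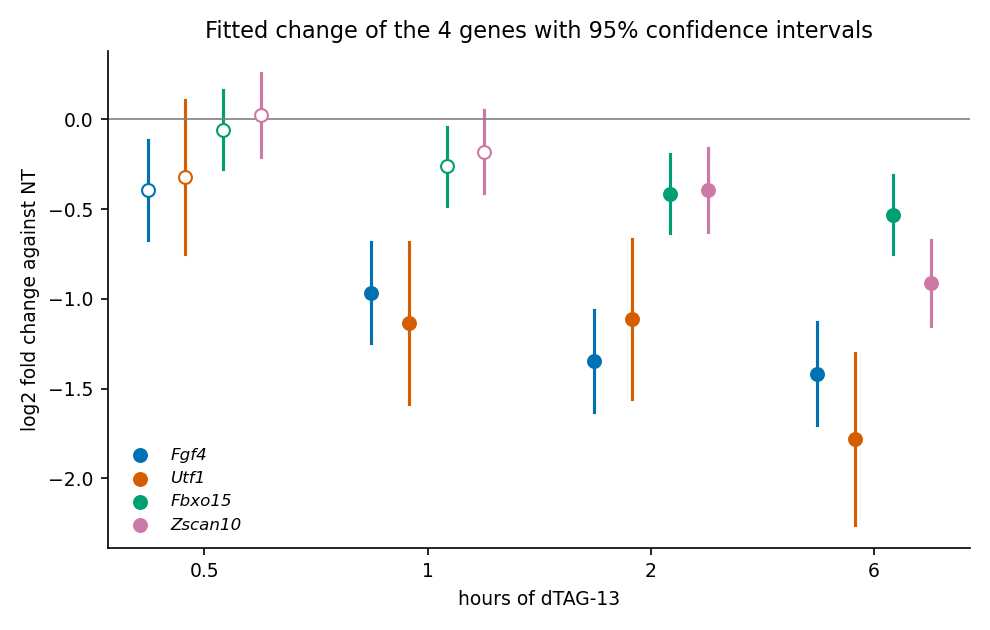
Log2 fold change against NT (vertical axis) at 0.5, 1, 2 and 6 h of dTAG-13 for the 4 genes, with 95% confidence intervals from the edgeR fit; filled points passed the test and open points did not. At 1 hpd the intervals of Fgf4 (-1.25 to -0.68) and Utf1 (-1.59 to -0.68) lie below those of Fbxo15 (-0.48 to -0.04) and Zscan10 (-0.41 to 0.05).

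The plot of fold changes shows the 4 genes in pairs at 1 hpd, with intervals that did not overlap between Fgf4 or Utf1 and Fbxo15 or Zscan10. At 6 hpd the interval of Zscan10 (-1.15 to -0.67) overlapped those of Fbxo15 (-0.75 to -0.31) and, by a narrow margin, Fgf4 (-1.70 to -1.13), but not that of Utf1 (-2.26 to -1.30). The difference between genes was not itself tested. Between successive times 1 change was called, the drop of Zscan10 from 2 to 6 hpd (-0.52, SE 0.11, adjusted p = 0.0451), where 0.777% of all TUs were called, 0.517% as lower. It was lost when any of 7 libraries was left out (adjusted p from 0.0668 to 0.28). From 1 to 6 hpd Zscan10 fell by 0.73 on the log2 scale (SE 0.11, adjusted p = 0.00121), where 4.88% of all TUs were called, 2.92% as lower, and this held whichever library was left out. Over the same span Fgf4 (-0.45, SE 0.13, adjusted p = 0.0695), Utf1 (-0.65, SE 0.24, adjusted p = 0.143) and Fbxo15 (-0.27, SE 0.10, adjusted p = 0.165) did not pass, though Fgf4 did when either 0.5 hpd or either 2 hpd library was left out (adjusted p from 0.0248 to 0.0453). The steps of Fgf4 and Utf1 from 0.5 to 1 hpd, -0.57 (SE 0.13) and -0.81 (SE 0.21), also missed the threshold (adjusted p = 0.17 and 0.281), at a comparison where 0.109% of all TUs passed, though that of Fgf4 passed without 2 hpd replicate 1 (adjusted p = 0.0468). No member passed from 1 to 2 hpd, where 0.218% of TUs did. With replicate number added to the fit as a block, more changes between treated times passed, as given at the end.

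Per length of TU the genes kept 1 order. In NT Fbxo15 was at 11.1 ± 0.523 CPM per kb, Zscan10 at 4.78 ± 0.309, Fgf4 at 3.90 ± 0.204 and Utf1 at 2.38 ± 0.677 (SD, n = 2). At 6 hpd they were at 7.66 ± 0.420, 2.54 ± 0.164, 1.46 ± 0.0760 and 0.693 ± 0.121 CPM per kb. No 2 neighbours in this order overlapped in NT or at 6 hpd. These are averages over TUs that run past their genes, by most for Fgf4, so the level within the gene may differ.

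The loci of the 4 genes were then searched for other TUs within 50 kb of each TU, on either strand. Of 36 such TUs, 27 passed the filter on low counts. Calls were 0 at 0.5 hpd (2 with an unadjusted p under 0.05, and 0 by DESeq2), 2 at 1 hpd, 2 at 2 hpd and 6 at 6 hpd. These were all lower but for 1 at 6 hpd, and the shares of all TUs called at these times are those given above. The median log2 fold change of the 27 at 6 hpd was -0.71, beside -0.04 over all TUs.

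Around Fgf4, Fgf3 and Ccnd1 fell and Oraov1 did not pass. Fgf3 encodes a further FGF ligand and ends 5.97 kb before the Fgf4 TU on the same strand. It gave 2.15 and 2.03 CPM in NT, 1.07 and 0.854 CPM at 1 hpd, 0.758 and 0.877 CPM at 2 hpd and 0.421 and 0.349 CPM at 6 hpd, so that no depleted library reached NT. Its log2 fold change was -1.36 (SE 0.34, adjusted p = 0.0182) at 2 hpd and -2.43 (SE 0.40, adjusted p = 0.000678) at 6 hpd. These are values from about 17 fragments per library, and the 2 hpd call was lost with DESeq2 (adjusted p = 0.111) and without either NT library or 2 hpd replicate 1 (adjusted p from 0.0685 to 0.142). Ccnd1, which encodes the G1 cyclin D1, lies 42.5 kb beyond the Fgf4 TU on the opposite strand. Its NT values were 38.1 and 40.4 CPM, followed in turn by 31.3 and 35.5, 25.5 and 25.2, 16.8 and 17.2, and 12.6 and 6.99 CPM over the 4 times, each group below the one before. The log2 fold changes were -0.63 (SE 0.17, adjusted p = 0.0427) at 1 hpd, -1.21 (SE 0.18, adjusted p = 0.00038) at 2 hpd and -2.02 (SE 0.19, adjusted p = 4.17e-06) at 6 hpd. The 1 hpd call of Ccnd1 was lost when any NT or 1 hpd library was left out (adjusted p from 0.126 to 0.263). Oraov1, whose TU covers Ccnd1 on the other strand, gave 39.0 and 36.7 CPM in NT and 35.2 and 31.5 CPM at 6 hpd (log2 -0.18, SE 0.11, adjusted p = 0.3). An antisense TU without a symbol, which overlaps the Fgf4 TU over 22.0 kb, went from 10.8 and 11.8 CPM in NT to 6.46 and 6.89 CPM at 1 hpd (log2 -0.76, SE 0.20, adjusted p = 0.039) and stood at 7.73 and 8.15 CPM at 6 hpd (log2 -0.51, SE 0.20, adjusted p = 0.101). Its 1 hpd call was lost on leaving out any 1 library of NT, 1 hpd or 6 hpd (adjusted p from 0.0551 to 0.254).

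Utf1 sat between TUs of the same strand that adjoin it, Kndc1 ending 11 bases before and LOC102635948 starting 11 bases after. Both were called lower at 6 hpd, as was an antisense TU that overlaps the Utf1 TU over 2.40 kb. Kndc1 gave 2.36 and 3.12 CPM in NT and 0.562 and 1.22 CPM at 6 hpd (log2 -1.57, SE 0.45, adjusted p = 0.0291), a call lost without either NT library or 6 hpd replicate 1 (adjusted p from 0.0512 to 0.208). LOC102635948 gave 11.2 and 13.1 CPM in NT, 14.4 and 14.6 CPM at 0.5 hpd and 5.34 and 6.70 CPM at 6 hpd (adjusted p = 0.00075). The antisense TU gave 3.63 and 4.51 CPM in NT and 1.33 and 1.92 CPM at 6 hpd (log2 -1.30, SE 0.30, adjusted p = 0.00856), lost without NT replicate 2 or 6 hpd replicate 1 (adjusted p = 0.0987 and 0.0927). Tubgcp2, a subunit of the gamma-tubulin complex on the other strand, was at 58.9 and 53.1 CPM in NT and 54.2 and 59.8 CPM at 6 hpd (log2 0.03, SE 0.11, adjusted p = 0.901). How the ends of adjoining TUs were drawn can move fragments between Utf1 and its neighbours, which was not tested.

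Timm21, which encodes a part of the mitochondrial import machinery, lies wholly inside the Fbxo15 TU on the opposite strand and rose as Fbxo15 fell. Its NT values were 5.65 and 4.80 CPM, followed in turn by 5.42 and 4.87, 6.33 and 6.09, 8.29 and 7.60, and 12.3 and 9.55 CPM over the 4 times. Every library from 1 hpd on was above both NT libraries. The log2 fold change was 0.60 at 2 hpd (SE 0.19, adjusted p = 0.0527) and 1.06 at 6 hpd (SE 0.18, adjusted p = 0.0011), and the 6 hpd call held whichever library was left out. Fragments were counted by strand per the methods, so the 2 TUs share no fragments by design. Cyb5a, which encodes a cytochrome and lies 34.4 kb from the Fbxo15 TU, was not called (0.26, SE 0.12, adjusted p = 0.138 at 6 hpd). Around Zscan10, 0 of 11 TUs were called at any time, with 4 at an unadjusted p under 0.05 at 6 hpd and 0 by DESeq2. There 6330415G19Rik was at -0.60 (SE 0.24, adjusted p = 0.107), Zfp213 at 0.07 (SE 0.19, adjusted p = 0.835) and Thoc6 at -0.07 (SE 0.16, adjusted p = 0.801) on the log2 scale at 6 hpd.

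**Figure D3:**
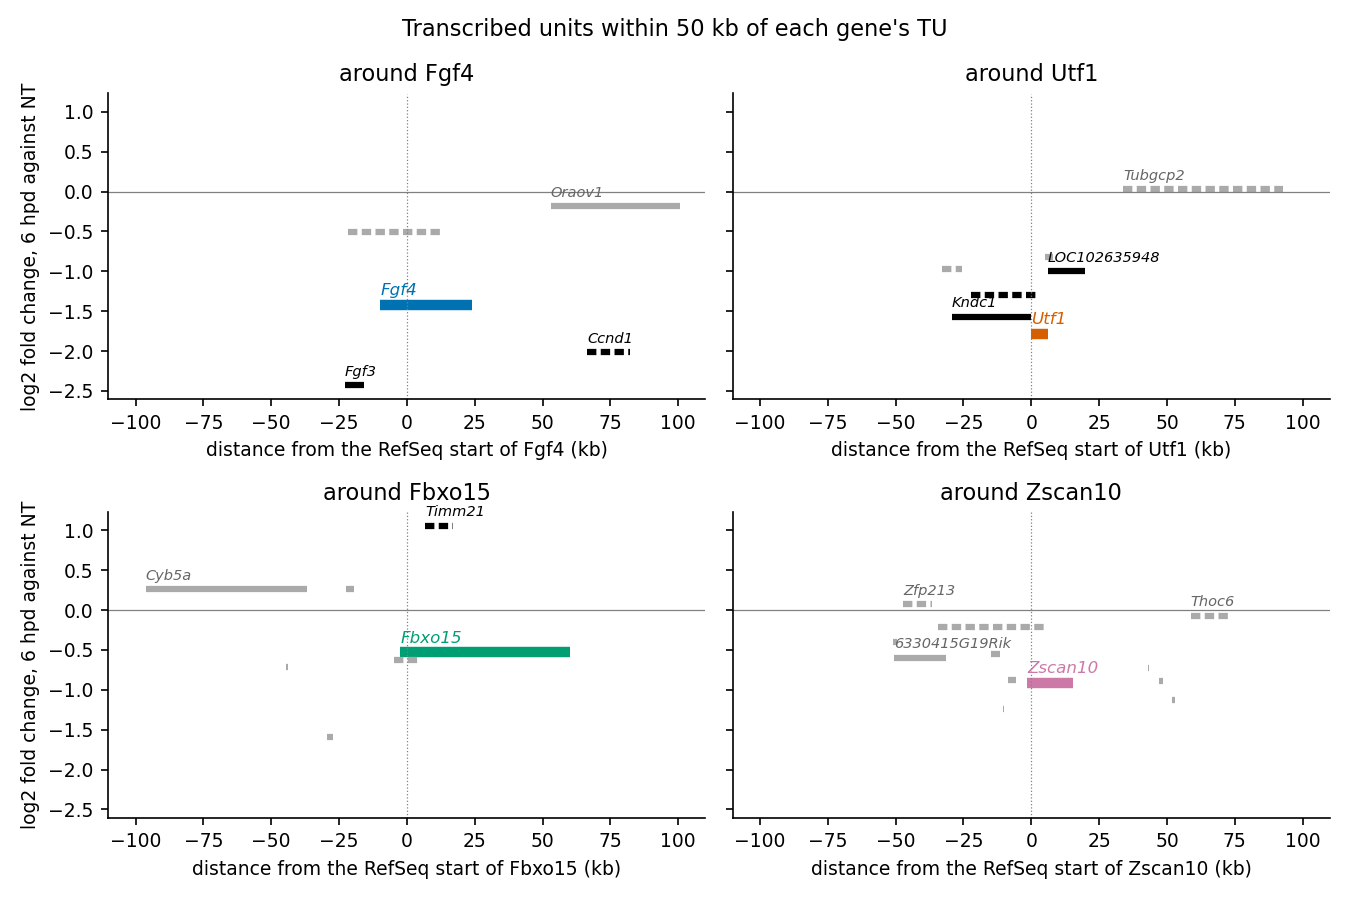
Log2 fold change at 6 hpd against NT (vertical axis) of each tested TU within 50 kb of the TU of Fgf4, Utf1, Fbxo15 or Zscan10, drawn to scale along its locus as the distance in kb from the RefSeq start. Coloured bars are the 4 genes, black bars other TUs that passed the test, grey bars those that did not, and broken bars the opposite strand: Timm21, at 1.06, is the black bar above 0, while Fgf3 and Ccnd1, at -2.43 and -2.02, lie below Fgf4.

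Among 5 other genes with composite elements (Sox2, Pou5f1, Nanog, Lefty1 and Spp1), 1 was lower at 0.5 hpd, 2 were lower at 1 hpd and 4 were lower at each later time. Of all TUs, 0.787%, 3.61%, 5.57% and 9.2% were called lower at the 4 times in turn. The median log2 fold change at 6 hpd was -0.62, beside -0.04 over all TUs. Spp1, which encodes the secreted phosphoprotein osteopontin, had fallen at each time, by 0.91 at 0.5 hpd (SE 0.10, adjusted p = 0.000489), 1.26 at 1 hpd (SE 0.11, adjusted p = 5.64e-06), 1.33 at 2 hpd (SE 0.11, adjusted p = 2.02e-06) and 1.74 at 6 hpd (SE 0.11, adjusted p = 8.77e-08) on the log2 scale. Lefty1, an inhibitor of Nodal signalling, was at -2.09 at 1 hpd (SE 0.33, adjusted p = 0.0013) and -3.92 at 6 hpd (SE 0.43, adjusted p = 1.78e-05), from about 24 fragments per library. Pou5f1, which encodes OCT4, was at -0.39 at 2 hpd (SE 0.11, adjusted p = 0.0325) and -0.62 at 6 hpd (SE 0.11, adjusted p = 0.00103). Nanog, a core pluripotency factor, was at -0.51 at 2 hpd (SE 0.11, adjusted p = 0.00642) and -0.43 at 6 hpd (SE 0.11, adjusted p = 0.012), a 6 hpd call lost without NT replicate 2 or either 6 hpd library (adjusted p from 0.0744 to 0.101). The 2 hpd calls of Pou5f1 and Nanog were lost without NT replicate 2 (adjusted p = 0.239 and 0.0612), and that of Pou5f1 also without NT replicate 1, either 1 hpd library or 2 hpd replicate 1 (adjusted p from 0.0524 to 0.187).

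The FGF pathway around Fgf4 was followed in 4 lists, in cells whose medium contained a MEK inhibitor throughout. Of 12 other FGF ligands 6 had a TU and 4 passed the filter, and of these Fgf3 and Fgf10 were lower at 6 hpd, where 9.2% of all TUs were called lower. Fgf10 was at -1.47 (SE 0.18, adjusted p = 4.4e-05), against -0.18 at 2 hpd (adjusted p = 0.551). Fgf2 was at 0.63, 0.76, 0.82 and -0.51 over the 4 times in turn (adjusted p from 0.129 to 0.606), and was called at 2 hpd without 2 hpd replicate 2 (1.16, adjusted p = 0.025). Fgf18 was at -0.16 (adjusted p = 0.671) at 6 hpd. At 1 hpd, when Fgf4 was called, Fgf3 stood at -1.13 (SE 0.33, adjusted p = 0.0636). Of 7 receptors and co-receptors tested, 0 were called at 0.5 hpd and at 1 hpd (2 and 1 with an unadjusted p under 0.05, and 0 by DESeq2) and 2 were higher at 2 and at 6 hpd, where 4.26% and 6.61% of all TUs were called higher. Fgfr2, a receptor of FGF ligands, was at 0.78 at 2 hpd (SE 0.16, adjusted p = 0.00477) and 1.84 at 6 hpd (SE 0.15, adjusted p = 1.55e-06), and the 6 hpd call held whichever library was left out, while the 2 hpd call was lost without NT replicate 2 or 2 hpd replicate 1 (adjusted p = 0.0787 and 0.0522). The glypican Gpc4 was at 0.55 (SE 0.14, adjusted p = 0.0198) and 0.46 (SE 0.14, adjusted p = 0.0341) at 2 and 6 hpd, and its 6 hpd call was lost on leaving out any 1 library of NT, 1 hpd or 6 hpd (adjusted p from 0.051 to 0.155), its 2 hpd call on leaving out either NT library or 2 hpd replicate 1 (adjusted p from 0.0598 to 0.191).

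Of 13 genes that relay the signal from receptor to ERK, 0 were called at 0.5 and at 1 hpd (2 and 5 with an unadjusted p under 0.05, and 0 and 1 by DESeq2), 2 were higher at 2 hpd and 2 at 6 hpd, against the same shares of all TUs. These were the adaptors Frs2 (0.48, SE 0.12, adjusted p = 0.0242) and Shc1 (0.41, SE 0.12, adjusted p = 0.0368) at 2 hpd, and Frs2 (0.60, SE 0.12, adjusted p = 0.0043) and the Ras exchange factor Sos1 (0.51, SE 0.14, adjusted p = 0.0238) at 6 hpd. At 6 hpd both were lost without NT replicate 2 (adjusted p = 0.0644 and 0.194), and Sos1 also without 6 hpd replicate 2 (adjusted p = 0.149). At 2 hpd Frs2 was lost without NT replicate 2 or 2 hpd replicate 1 (adjusted p = 0.228 and 0.225), and Shc1 without either library of NT, 1 hpd or 6 hpd or 2 hpd replicate 2 (adjusted p from 0.054 to 0.159) and with total counts as the only scaling (0.30, adjusted p = 0.185). Of 10 feedback inhibitors and output genes of ERK, 2 were higher at 0.5 hpd, and over the 3 later times in turn 2, 5 and 4 were higher while 1 was lower each time. Of all TUs, 0.527%, 2.15%, 4.26% and 6.61% were called higher at the 4 times in turn. Their median log2 fold change at 6 hpd was 0.28. The lower gene was Etv1, an ETS factor, which at 2 hpd (-0.60) no longer passed without NT replicate 2 (-0.43, adjusted p = 0.229) and at 6 hpd (-0.51) no longer passed without NT replicate 2 (-0.33, adjusted p = 0.324) or 6 hpd replicate 1 (-0.29, adjusted p = 0.308). Of the higher calls at 6 hpd, that of Etv4, a further ETS factor, lay at the threshold (0.36, adjusted p = 0.05) and was lost with DESeq2, with total counts as the only scaling and in 6 of 10 fits that left out a library (adjusted p from 0.0595 to 0.256). At 0.5 hpd the Sprouty genes Spry2 (0.58, SE 0.12, adjusted p = 0.0275) and Spry4 (1.33, SE 0.29, adjusted p = 0.0368), inhibitors of receptor signalling, were higher. Both of these early calls were lost without NT replicate 1 or 0.5 hpd replicate 2 (adjusted p from 0.182 to 0.283), and that of Spry2 also without NT replicate 2 (adjusted p = 0.114), that of Spry4 without 0.5 hpd replicate 1 (adjusted p = 0.0737). With total counts as the only scaling both were lost as well (adjusted p = 0.0646 and 0.0654). At 1 hpd Spry1 was at 0.43 (SE 0.10, adjusted p = 0.014), Spred2 at 0.49 (SE 0.11, adjusted p = 0.0158) and Etv1 at -0.84 (SE 0.15, adjusted p = 0.00291). All 3 were lost without NT replicate 2 (adjusted p from 0.059 to 0.135), and Spry1 and Spred2 also without either 1 hpd library (adjusted p from 0.0867 to 0.185), Spry1 also without NT replicate 1 (adjusted p = 0.0735). At 6 hpd Spred2 was at 0.82 (SE 0.11, adjusted p = 0.000155), Spry2 at 0.74 (SE 0.12, adjusted p = 0.00078) and Spry1 at 0.57 (SE 0.10, adjusted p = 0.00094), calls that held whichever library was left out. Spry4 was at -0.32 (adjusted p = 0.55) by then, and Dusp6 and Etv5, common readouts of ERK, were at 0.20 (adjusted p = 0.507) and -0.07 (adjusted p = 0.711).

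Of 29 other F-box genes tested, 0 were called at 0.5 and at 1 hpd (1 and 6 with an unadjusted p under 0.05, and 0 by DESeq2 at both), and 1, Fbxo22, was lower at 2 hpd (-0.38, SE 0.11, adjusted p = 0.0435) and at 6 hpd (-0.55, SE 0.11, adjusted p = 0.00402). Their median at 6 hpd was 0.05, and 15.8% of all TUs were called at that time. The 6 hpd call of Fbxo22 was lost without NT replicate 2 or 6 hpd replicate 1 (adjusted p = 0.0714 and 0.0614), and its 2 hpd call with DESeq2 (adjusted p = 0.0955) and on leaving out NT replicate 2 or any 1 library of 1, 2 or 6 hpd (adjusted p from 0.0573 to 0.314). With total counts as the only scaling Fbxo5 was called lower at 1, 2 and 6 hpd (adjusted p = 0.0409, 0.00617 and 0.0411). Of 4 partners of F-box proteins in the SCF ligase (Skp1a, Cul1, Rbx1 and Nedd8), 0 were called at any time in the fit of all libraries with TMM scaling. The scaffold Cul1 had an unadjusted p under 0.05 at 2 and 6 hpd, with log2 fold changes of 0.36 and 0.42 (adjusted p = 0.13 and 0.0572), and at 6 hpd it was called by DESeq2 (0.45, adjusted p = 0.0382) and with total counts as the only scaling (0.33, adjusted p = 0.0386), and by edgeR when either 0.5 hpd or either 2 hpd library was left out (adjusted p from 0.016 to 0.0303). Without 2 hpd replicate 2 it was called at 2 hpd too (0.51, adjusted p = 0.0282). Of 11 other SCAN zinc finger genes tested, 0 were called before 6 hpd (2 with an unadjusted p under 0.05 at 2 hpd and 0 by DESeq2). At 6 hpd 3 of the 11 were called, where 15.8% of all TUs were. Zscan2 (0.71, SE 0.16, adjusted p = 0.00849) and Zscan29 (0.50, SE 0.15, adjusted p = 0.0349) were higher and Zscan5b (-0.62, SE 0.16, adjusted p = 0.0161) was lower. Each of these 3 was lost without NT replicate 2 (adjusted p from 0.0881 to 0.162) and without 6 hpd replicate 2 (adjusted p from 0.0523 to 0.135), Zscan5b and Zscan29 also without 6 hpd replicate 1 (adjusted p = 0.12 and 0.109), and Zscan29 further without either 1 hpd library (adjusted p = 0.0527 and 0.052), with DESeq2 (adjusted p = 0.0911) and with total counts as the only scaling (adjusted p = 0.105).

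**Figure D4:**
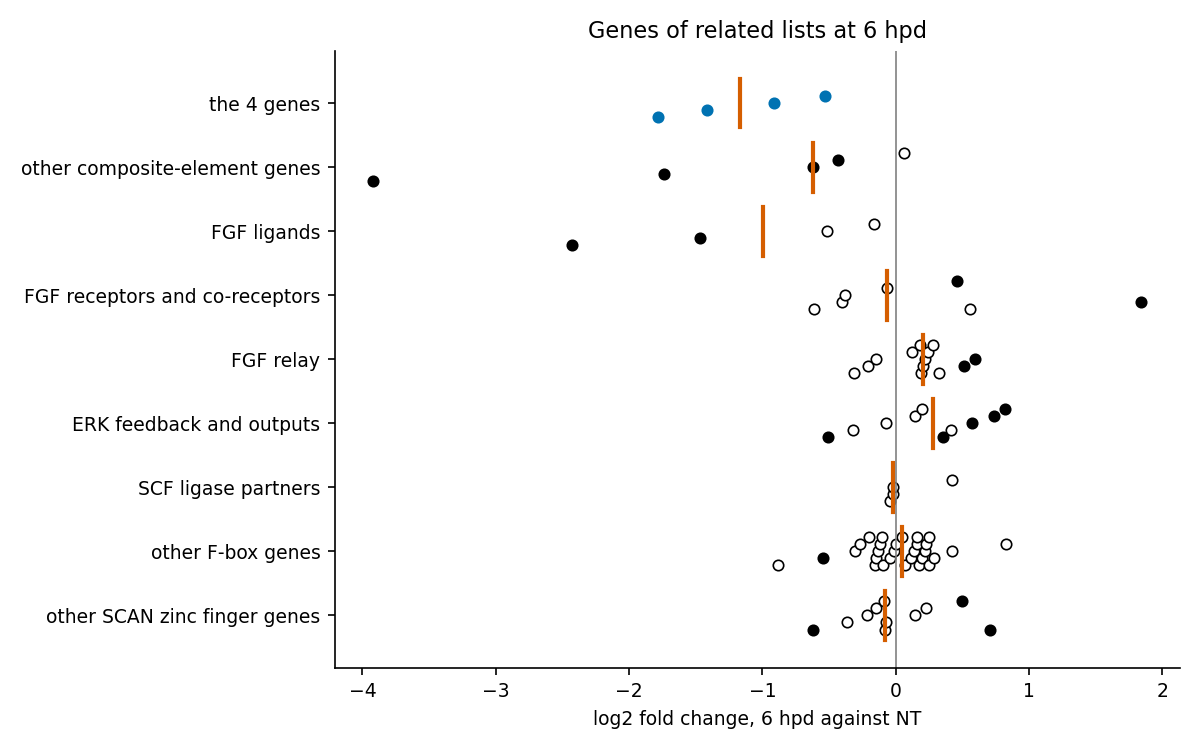
Log2 fold change at 6 hpd against NT (horizontal axis) of the 4 genes, in blue, and of each tested gene of the related lists, in black, 1 row per list. Filled points passed the test, open points did not, and the vertical bar is the median of the row: the 4 genes lie between -1.78 and -0.53, and the median of the other F-box genes is 0.05.

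The TUs with a gene symbol whose log2 CPM over the 10 libraries was most like that of each gene were found by Pearson's r, over the 11937 such TUs that averaged 50 fragments or more per library. The libraries share the time course, so a high r mainly ranks the shapes of it, and it is given as a description. For Fgf4 these were Uhrf1 (r = 0.991), D730005E14Rik (0.987) and Cst3 (0.985). Their falls differed in depth: D730005E14Rik was at -1.52 on the log2 scale at 6 hpd, close to Fgf4, and Uhrf1, a factor of DNA methylation maintenance, at -0.39, with Cst3 between them. For Utf1 they were Snhg7 (0.989), Gm550 (0.985) and Pou5f1 (0.980), at -0.47, -0.57 and -0.62 at 6 hpd, all shallower than Utf1. For Fbxo15 they were Rims1 (0.990), 4930519F16Rik (0.987) and the lymphatic growth factor gene Vegfc (0.985), at -2.19, -1.11 and -1.76, all deeper than Fbxo15. For Zscan10 they were Fblim1 (0.982), Cpsf4l (0.978) and Wdr45 (0.977), at -1.52, -1.02 and -0.80 at 6 hpd. Among the 4 genes themselves r ran from 0.816, for Fgf4 and Zscan10, to 0.908, for Fgf4 and Fbxo15.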

How the data were processed

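Nascent RNA of 10 libraries was measured by TT_chem_seq. The authors deposited raw fragment counts per TU, made by aligning reads to mm10 with bwa mem (BWA 0.7.17-r1188), filtering on mapping quality with SAMtools 1.10, removing duplicates with Picard 2.12.0 and separating strands. They defined TUs on pooled data with a hidden Markov model and matched them to RefSeq genes, so all libraries share the same TU ends. Libraries were grouped by their labels, which do not say whether replicates were separate cultures, so p-values may measure technical spread only.

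From the counts, TUs that exceeded 10 fragments in 2 or more libraries were kept (the other 12320 held 0.316% of fragments) and fitted over all 10 libraries with edgeR 4.0.16 (R 4.3.3; TMM, quasi-likelihood F-test, Benjamini-Hochberg over 28459 TUs, threshold 0.05), which was tested on simulated data. Alternatives were DESeq2 1.42.0, other scalings, filters, subsets, neighbour distances and a replicate block. Sequences came from RefSeq GRCm38.p6, where promoters were found for 3 of the 4 genes. Deposited starts count from 0 and were raised by 1 base.

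Genes were named by rule: the 4 genes, Sox2, neighbouring TUs within 50 kb that had a symbol or were called, the up to 3 called genes of each list at each time with the smallest p, and the 3 TUs most correlated with each gene. Dusp6, Etv4, Etv5, Fgf2, Fgf18, Fbxo5, Fbxo31 and Cul1 fall outside it and were chosen after their values were seen. The same holds for the single cell type markers named, such as Eomes and Pdgfrb. The members and lists were chosen with earlier results of these data known.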

Additional observations from a re-analysis of the deposited data

Results flagged for a closer look

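From 1 to 6 hpd Zscan10 was called (log2 fold change -0.73, edgeR), and from 2 to 6 hpd likewise (-0.52), the latter lost on leaving out any of 7 libraries. The other 3 genes did not pass in these steps with all libraries fitted, though Fgf4 passed from 1 to 6 hpd in 4 of 10 fits that left out a library. The difference between genes in these steps was not tested.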

How the results depend on the processing

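All 4 genes were called at 6 hpd under every alternative run. With total counts only, Zscan10 was at -0.0068 at 0.5 hpd (0.02 otherwise), Fbxo15 at -0.35 at 1 hpd (adjusted p = 0.0105) and 1 change between treated times (the successive steps and 1 to 6 hpd) was called, against 2; this scaling moved the median of all TUs from -0.04 to -0.16 at 2 hpd. With only the libraries compared, Fbxo15 was at -0.24 at 1 hpd (adjusted p = 0.0266), and 2 genes were called at 2 hpd, with Fbxo15 at -0.40 and Zscan10 at -0.38. Zscan10 was at -0.36 at 2 hpd with DESeq2 and with RLE size factors. DESeq2 called 8 list genes at 1 hpd, against 5, and 1 neighbour at 2 hpd. RLE called 1 neighbour at 1 hpd, and a distance of 20 kb left 1 at 1 hpd and 1 at 2 hpd.

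Replicate numbers are shared across groups, but the labels do not say what they pair. Same-numbered libraries deviated together from their group means (correlations of 0.43, 0.43, 0.38 and 0.20 at 0.5, 1, 2 and 6 hpd over 14959 TUs). With the replicate block, 1 gene was called at 0.5 hpd (Fgf4, -0.40, adjusted p = 0.0274), the same time as Spp1, and 6 such changes; Fgf3 was called at 1 hpd (-1.13, adjusted p = 0.026), and Cul1 at 2 and 6 hpd (adjusted p = 0.0482 and 0.0137) and Fbxo5 and Fbxo31 at 2 hpd (adjusted p = 0.0156 and 0.0371). List genes called numbered 10, 13 and 28 at 0.5, 1 and 2 hpd, against 3, 5 and 16, and neighbours 5, 7 and 11 at 1, 2 and 6 hpd, against 2, 2 and 6.

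Leaving out each library in turn called 1 to 2 genes at 1 hpd, 1 to 4 at 2 hpd and 1 to 4 such changes. The log2 ranges were -0.55 to -0.23 for Fgf4, -0.59 to 0.0042 for Utf1 and -0.059 to 0.12 for Zscan10 at 0.5 hpd, -1.39 to -0.79 for Utf1 and -0.23 to -0.09 for Zscan10 at 1 hpd, and -1.38 to -0.79 for Utf1, -0.47 to -0.37 for Fbxo15 and -0.49 to -0.31 for Zscan10 at 2 hpd. Between times they were -0.16 to 0.17 for Utf1 from 1 to 2 hpd and -0.24 to 0.15 for Fgf4 from 2 to 6 hpd. List genes called ranged from 1 to 6, 3 to 10, 6 to 24 and 9 to 23 at the 4 times, and neighbours from 0 to 2, 1 to 5 and 4 to 7 from 1 hpd on. Among the 4 genes Utf1 had the fewest fragments and the largest SEs, and Fgf3, Lefty1 and Kndc1 had fewer fragments still.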
